A study of Mus musculus with 4 samples.

Results

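Vascular growth factor signalling in the lung was followed through 10 genes of the VEGF, angiopoietin and apelin systems, taken by their symbols from the 32285 genes of the count tables: the ligands Vegfa, Vegfc, Angpt1 and Apln, the VEGF receptors Kdr, Flt1 and Flt4, the co-receptor Nrp1, the angiopoietin receptor Tek and the apelin receptor Aplnr. All 10 were found. The question was which lung cells made each ligand, which carried its receptor, and whether the levels differed between mice given tamoxifen and mice given placebo. Single cells came from whole lungs of 4 female FVB/NJ mice that carry MMTV-PyMT, a mammary tumour transgene driven by the mouse mammary tumour virus promoter, so every mouse of both groups bore the tumour-prone genotype. From 8 weeks of age 2 mice carried a placebo pellet and 2 mice a pellet of 5 mg tamoxifen with release over 60 days, and lungs were taken after 5 weeks, at 13 weeks of age. A single 10x Genomics 5' library was made from each mouse, and in it a unique molecular identifier (UMI) stands for 1 captured RNA molecule.

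VEGF-A is released by epithelium and other cells and acts mainly through the receptor tyrosine kinase encoded by Kdr, while the protein of Flt1 binds VEGF-A tightly and signals weakly, and Flt4 serves VEGF-C in lymphatic vessels. Angiopoietin-1, made by perivascular and mesenchymal cells, holds the receptor Tek active and so keeps vessels quiet. Apelin signals through the G protein-coupled receptor Aplnr. The capillaries of the mouse lung hold large flat endothelial cells specialised for gas exchange, called aerocytes, and general capillary cells, which act as their progenitors; Apln and Aplnr are known to mark the former and the latter.

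After filters 7480 and 6676 placebo cells and 6849 and 7472 tamoxifen cells were kept, with median depths of 2626 and 4066 and of 3234 and 2909.5 UMIs. Library totals ran from 32646505 to 37285982 UMIs. Library pairs shared 77 to 128 cell barcodes, at most 1.43% of the smaller library. Cells fell into 98 clusters, of which 86 took the name of 1 of 29 classes from marker lists that held none of the 10 genes, and the 10 genes and their pathway lists were kept out of the clustering. Names rest on markers alone, so each class is "-like" even where the text shortens it. Endothelial-like cells were few and fewest in the second tamoxifen mouse: 3.26% and 2.77% of placebo cells and 2.58% and 1.41% of tamoxifen cells. Their marker Pecam1 stood at 11.4 to 18.6 UMIs per 10000 in the general capillary, aerocyte and large-vessel classes in each mouse. Alveolar type 2-like cells held Sftpc at 1744 to 2115 per 10000. Another 5 unnamed clusters with an endothelial list as their highest, left out because a second class also scored or the score was too low, held 0.829% and 1.18% of placebo cells and 0.832% and 0.589% of tamoxifen cells.

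Levels are given throughout as UMIs of the gene per 10000 UMIs of the class, summed per mouse, in the order placebo mouse 1, placebo mouse 2, tamoxifen mouse 1 and tamoxifen mouse 2. Classes come from clusters, so differences between classes are a description with no test. B-like cells, which should lack these genes, gave the background: a UMI of Vegfa was seen in 0.721% of 1942 B-like cells, one of Kdr in 0.515%, one of Apln in 0.154% and one of Aplnr in 0 of 1942 (exact 95% upper bound 0.19%), at a median of 3001.5 UMIs. Intervals on shares of cells are exact Clopper-Pearson 95% intervals and cover counting error only.

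The stretches just upstream of the start sites are shown for 3 members whose levels part the capillary classes: Kdr and Apln, highest in aerocyte-like cells, and Tek, highest in general capillary-like cells. RefSeq promoters of the GRCm38.p6 build were matched for 8 of the 10 members. Each line holds the 250 bases before the start site, 5′ to 3′ on the gene's strand: Kdr at chr5:75978456-75978705 (minus strand), Apln at chrX:48034854-48035103 (minus strand) and Tek at chr4:94739039-94739288 (plus strand). Capitals mark the words GGGCGG (a GC box), ACGTG or GCGTG (the core bound by hypoxia-inducible factors) and AGGAAG or CGGAAG (the core bound by ETS factors), each on either strand.
Kdr: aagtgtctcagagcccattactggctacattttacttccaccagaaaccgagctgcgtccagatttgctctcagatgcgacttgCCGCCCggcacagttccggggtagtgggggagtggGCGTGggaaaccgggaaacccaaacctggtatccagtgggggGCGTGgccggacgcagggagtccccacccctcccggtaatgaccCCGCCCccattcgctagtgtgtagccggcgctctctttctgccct
Apln: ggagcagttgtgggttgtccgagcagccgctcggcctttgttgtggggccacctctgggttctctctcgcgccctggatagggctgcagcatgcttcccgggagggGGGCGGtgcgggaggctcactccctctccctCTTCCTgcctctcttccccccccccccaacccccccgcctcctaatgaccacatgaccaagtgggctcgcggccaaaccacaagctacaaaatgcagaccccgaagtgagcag
Tek: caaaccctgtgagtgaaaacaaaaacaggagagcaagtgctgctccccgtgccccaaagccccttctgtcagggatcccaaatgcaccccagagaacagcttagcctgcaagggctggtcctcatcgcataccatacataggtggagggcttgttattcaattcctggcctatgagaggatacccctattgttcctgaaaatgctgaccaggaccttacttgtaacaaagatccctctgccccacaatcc
The Kdr window held 2 GC boxes, 2 hypoxia cores and 0 ETS cores, that of Apln 1 GC box, 0 hypoxia cores and 1 ETS core, and that of Tek 0 of each. Among all 32851 promoter windows of this length, 32.7% held a GC box, 38.6% a hypoxia core and 39.2% an ETS core, so these words are common in promoters. A match is a description of the letters, not a binding site.

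Vegfa (ENSMUSG00000023951, chr17:46016993-46032369, minus strand, GRCm38), the main angiogenic ligand, was highest in alveolar type 1-like cells, the flat epithelium of the alveolus. There it stood at 25.6 and 18.1 UMIs per 10000 under placebo and at 31.8 and 18.3 under tamoxifen, from 15 to 27 cells a mouse. Its mean was 4.05 times that of the next class, and the ranges over the 4 mice did not overlap. Of these cells 52.7% (42.0 to 63.3%) held a Vegfa UMI. Of those with at least 1000 UMIs, 52.8% did when thinned to 1000 UMIs. The 2 shares cover different sets of cells, as shallower cells were left out of the second. This class also carried RNA of other cells: S100a8 of neutrophils stood at 45.0 to 125 per 10000 in it, and Sftpc of alveolar type 2 cells at 46.1 in placebo mouse 2 and at most 0.206 in the others. Their part in the Vegfa level was not tested. Alveolar type 2-like cells, which make surfactant, held far less Vegfa, 0.789, 0.781, 0.699 and 0.739 per 10000.

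By level per 10000 UMIs, the next highest classes for Vegfa lay within the vessels. In general capillary-like cells it stood at 5.21, 6.07, 4.64 and 7.23 per 10000, and in large-vessel-like cells at 3.63, 4.27, 1.57 and 3.53. Aerocyte-like cells stood at the other end, with 2 Vegfa UMIs in 145 cells of all mice, against 870 in 447 general capillary-like cells. The general capillary level was above the large-vessel level in 4 of 4 mice with no overlap, while alveolar type 2-like cells and alveolar fibroblast-like cells (0.769, 0.648, 0.716 and 0.623) overlapped. Neutrophil-like cells had a low level, 0.531 and 0.438 under placebo and 0.332 and 0.372 under tamoxifen. They were so many that they held 19.1% to 42.0% of all Vegfa UMIs of a library, more than the 10.7% to 13.9% from alveolar type 1-like cells.

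Within the large-vessel class, the cluster with the arterial markers highest held Vegfa at 8.65 and 7.05 per 10000 under placebo and 3.80 and 4.03 under tamoxifen, from 59, 39, 19 and 25 UMIs in 13 to 15 cells a mouse. The placebo and tamoxifen mice did not overlap there. No share over all genes was computed for this cluster alone. In the whole large-vessel class, 15.2% of all genes tested were lower in both tamoxifen mice. The cluster was singled out after its values were seen, so no test was run on it. The cluster with the venous markers highest held Vegfa at 0.289, 2.82, 0.486 and 1.38, the last from 2 cells.

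**Figure D1:**
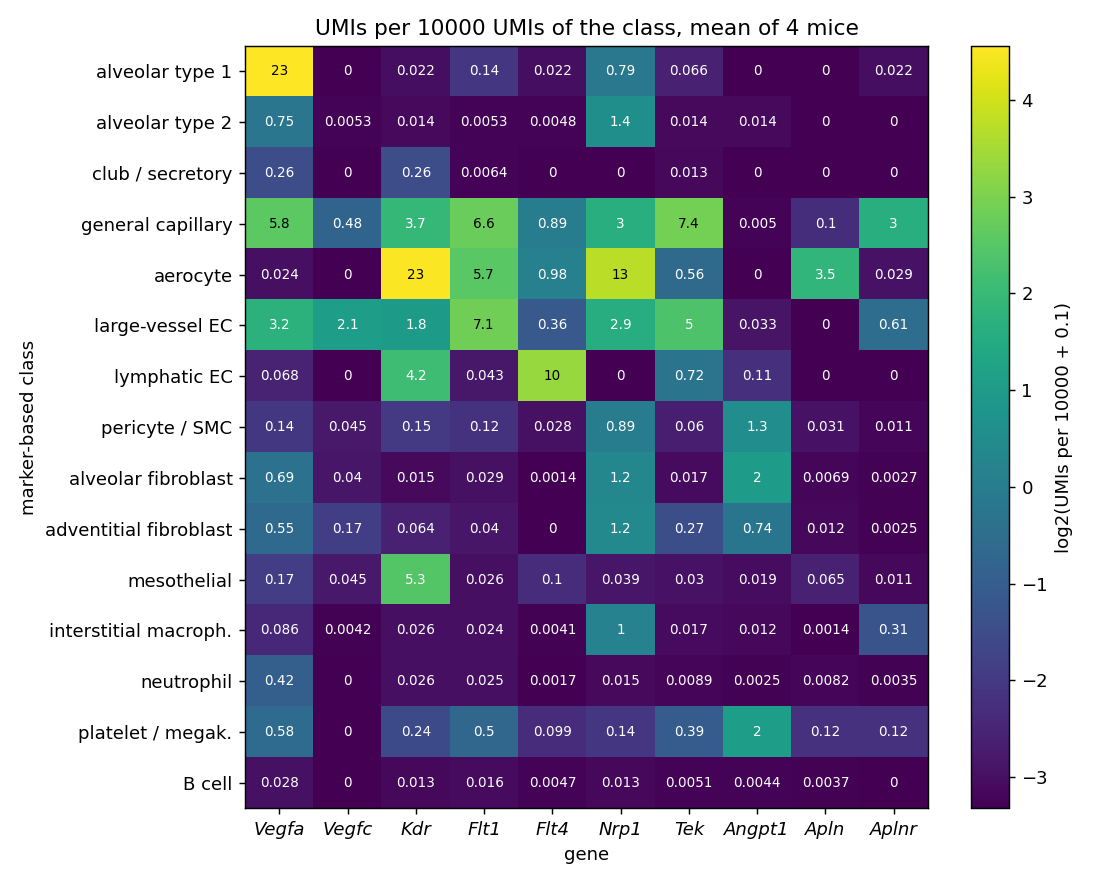
Mean level over 4 mice of each of the 10 genes (columns) in marker-based classes (rows), as UMIs per 10000 UMIs of the class, printed in each cell and coloured on a log2 scale with 0.1 added. Vegfa is brightest in alveolar type 1-like cells (23.5), Kdr, Nrp1 and Apln in aerocyte-like cells, and Tek and Aplnr in general capillary-like cells.

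Vegfc (ENSMUSG00000031520, chr8:54077606-54187096, plus strand), the lymphangiogenic ligand, was highest in large-vessel-like cells at 2.22, 1.73, 2.95 and 1.31 per 10000. These UMIs came almost all from the venous-marked cluster, with 36, 28, 45 and 10 UMIs against 2, 0, 0 and 0 in the arterial-marked one. General capillary-like cells held 0.456, 0.528, 0.529 and 0.392, below the large-vessel level in every mouse. In aerocyte-like and in lymphatic-like cells no Vegfc UMI was counted.

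Angpt1 (ENSMUSG00000022309, chr15:42424723-42676977, minus strand), the agonist of Tek, came mostly from mesenchymal cells. Alveolar fibroblast-like cells stood at 2.06 and 2.18 per 10000 under placebo and 1.97 and 1.61 under tamoxifen, and they held 59.2% to 76.0% of all Angpt1 UMIs of a library. The mural class, of pericytes and smooth muscle, stood at 1.29, 0.810, 1.56 and 1.73, and adventitial fibroblast-like cells at 0.940, 0.975, 0.376 and 0.657. Platelet-like cells stood first by mean level, at 1.99 against 1.95 in alveolar fibroblast-like cells. Their values were 2.04, 1.16, 2.92 and 1.86, from 85 UMIs in all, and overlapped with those of the alveolar fibroblasts.

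Inside the mural class the Angpt1 level was highest in the pericyte-like cluster, the cells that wrap capillaries. It stood there at 5.43, 3.50, 5.79 and 7.12 per 10000, from 98, 20, 49 and 62 UMIs. The smooth muscle-like cluster held 0.555, 0.548, 0.983 and 0.484. It made up 80.5% and 66.8% of all UMIs of the mural class under placebo and 85.3% and 71.4% under tamoxifen. Mural Angpt1 UMIs thus also lay outside the pericyte-like cluster. The pericyte-like cluster made up 27.7% and 20.8% of mural cells under placebo and 21.4% and 31.1% under tamoxifen. In the aerocyte and general capillary classes only 1 Angpt1 UMI was found, in a general capillary-like cell.

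Apln (ENSMUSG00000037010, chrX:48025146-48034853, minus strand), the apelin precursor, had its highest level among the named classes in aerocyte-like cells. Aerocyte-like cells held 4.00 and 3.12 per 10000 under placebo and 4.17 and 2.80 under tamoxifen. The next class in order, platelet-like, had a mean 30.1 times lower. Aerocyte-like cells held 24.2% to 41.7% of all Apln UMIs of a library and the unnamed clusters 30.9% to 54.8%. Mesothelial-like cells held 0.503% and 1.66% of them under placebo and 12.2% and 22.2% under tamoxifen. General capillary-like cells held 0.0397, 0.066, 0.138 and 0.168, from 2, 3, 6 and 3 UMIs. Both tamoxifen mice lay above both placebo mice there, on counts too low to enter the test. Of all genes tested in that class, 15.3% were higher in both tamoxifen mice.

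**Figure D2:**
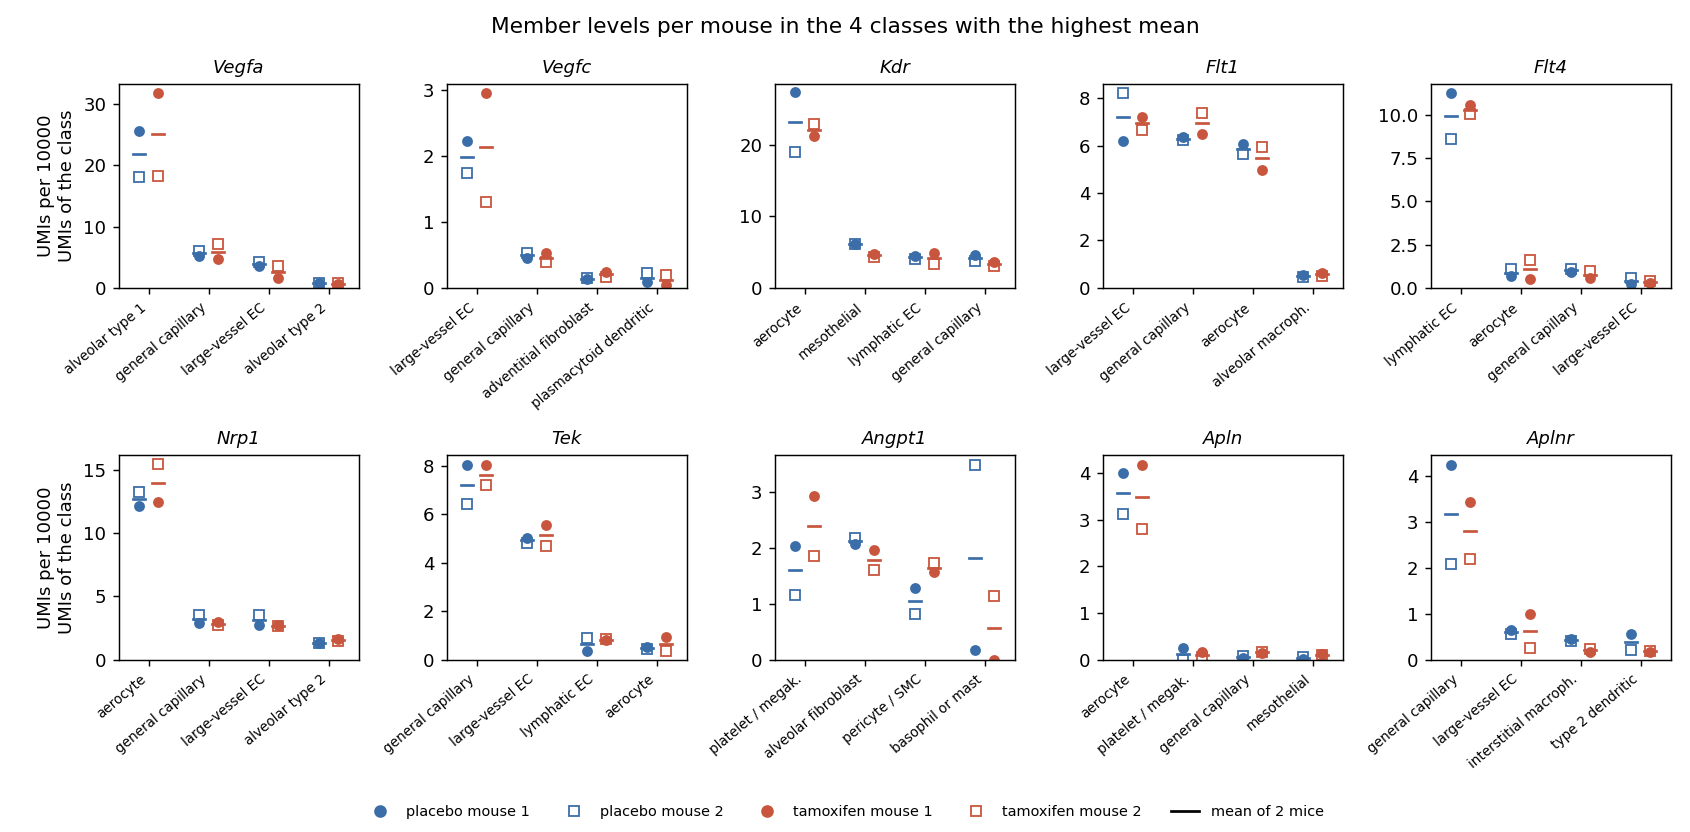
Level of each gene (vertical axis, UMIs per 10000 UMIs of the class) in each mouse for the 4 classes with its highest mean level. Filled circles are mouse 1 and open squares mouse 2 of each group, and bars are group means of 2 mice. The leading class lies above the second in all 4 mice with no overlap for each gene except Flt1 and Angpt1.

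Kdr (ENSMUSG00000062960, chr5:75932827-75978458, minus strand), the main signalling receptor for VEGF-A, peaked in aerocyte-like cells at 27.3, 18.9, 21.1 and 22.9 per 10000, where 95.9% of cells (91.2 to 98.5%) held a UMI. Mesothelial-like cells, the lining of the lung surface, came next with 6.14 and 6.12 under placebo and 4.77 and 4.31 under tamoxifen. They overlapped with lymphatic-like cells (4.43, 4.09, 4.87 and 3.35, from 2 to 11 cells a mouse) and these with general capillary-like cells (4.54, 3.69, 3.59 and 3.08). Mesothelial-like cells numbered 88 and 43 under placebo and 145 and 247 under tamoxifen. They supplied 30.3% and 25.2% of all Kdr UMIs in the placebo libraries and 44.5% and 62.8% in the tamoxifen libraries. The aerocyte share was 22.6% and 23.8%, then 17.5% and 11.3%. Most Kdr UMIs of tamoxifen mouse 2 thus lay outside the endothelium.

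Flt1 (ENSMUSG00000029648, chr5:147561604-147726011, minus strand), the decoy-like receptor, was the most evenly spread over the blood endothelium. Large-vessel-like cells held 6.20, 8.22, 7.20 and 6.66 per 10000, general capillary-like cells 6.34, 6.22, 6.48 and 7.40, and aerocyte-like cells 6.09, 5.66, 4.96 and 5.96. The first and second of these overlapped. Thinned to 1000 UMIs, 48.6% of general capillary-like, 46.9% of large-vessel-like and 41.9% of aerocyte-like cells held a UMI, the only member whose leading class differed from that by level. Alveolar macrophage-like cells followed at 0.542, 0.469, 0.630 and 0.507.

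Flt4 (ENSMUSG00000020357, chr11:49609263-49652739, plus strand), the VEGF-C receptor, led in lymphatic-like cells at 11.2, 8.63, 10.5 and 10.1 per 10000, from 25 cells in all. Aerocyte-like (0.676, 1.09, 0.503 and 1.64) and general capillary-like cells (0.932, 1.12, 0.552 and 0.952) overlapped with each other. Nrp1 (ENSMUSG00000025810, chr8:128358604-128503363, plus strand), a co-receptor of Kdr, followed Kdr into aerocyte-like cells at 12.1, 13.3, 12.4 and 15.4 per 10000, with a mean 4.42 times that of general capillary-like cells (2.86, 3.50, 2.94 and 2.75). Outside endothelium Nrp1 was found at a mean of 1.43 in alveolar type 2-like, 1.21 in adventitial and 1.16 in alveolar fibroblast-like cells.

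Tek (ENSMUSG00000006386, chr4:94739289-94874976, plus strand), the angiopoietin receptor, had the reverse pattern to Kdr among capillaries. General capillary-like cells held 8.03, 6.42, 8.07 and 7.23 per 10000, large-vessel-like cells 5.03, 4.82, 5.56 and 4.70, and aerocyte-like cells 0.520, 0.453, 0.935 and 0.350. The general capillary level lay above the aerocyte level in each mouse without overlap. Aplnr (ENSMUSG00000044338, chr2:85136225-85139923, plus strand), the apelin receptor, stood at 4.24, 2.09, 3.42 and 2.19 in general capillary-like cells and at 0.644, 0.557, 0.982 and 0.261 in large-vessel-like cells. Each group had one high and one low mouse, and the groups overlapped. Outside endothelium, interstitial macrophage-like cells held 0.452 and 0.402 under placebo and 0.169 and 0.236 under tamoxifen.

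**Figure D3:**
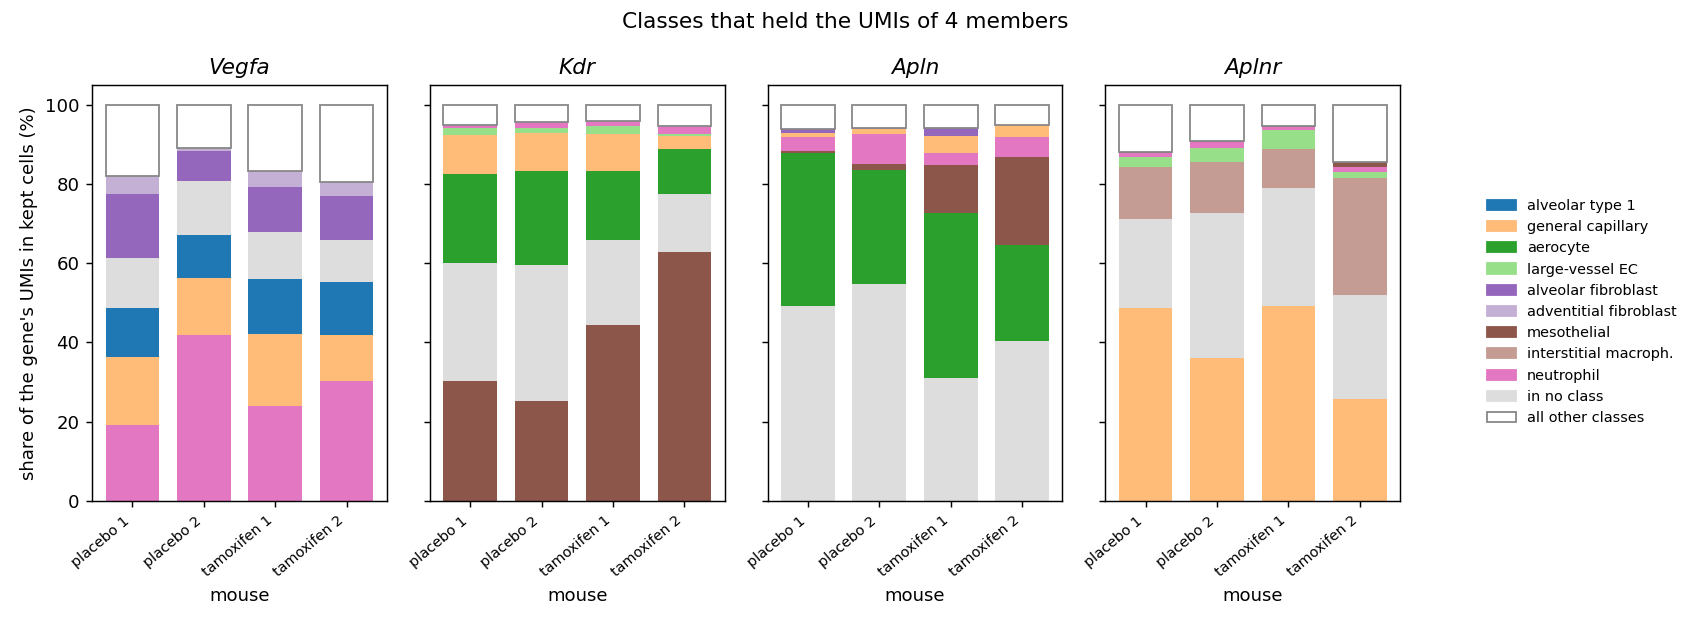
Share of all UMIs of Vegfa, Kdr, Apln and Aplnr (vertical axis, percent of the gene's UMIs in kept cells of a mouse) by class, 1 bar per mouse, with the 6 leading of the classes shown for each gene. The mesothelial part of Kdr is 25.2% to 30.3% in the placebo mice and 44.5% to 62.8% in the tamoxifen mice.

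Within the named capillary classes, ligand and receptor of the apelin pair lay mostly in different cells. The cluster with markers of both classes, described below, was left out of these counts. Of 145 aerocyte-like cells 89 held UMIs of Apln alone, 0 of Aplnr alone, 1 of both and 55 of neither. Of 447 general capillary-like cells 7 held Apln alone, 234 Aplnr alone, 6 both and 200 neither. By mouse, the Apln share of aerocyte-like cells was 64.7% and 66.7% under placebo and 63.3% and 45.5% under tamoxifen (10 of 22 cells, 24.4 to 67.8%). The Aplnr share of general capillary-like cells was 63.2% and 47.0%, then 58.3% and 35.4% (23.9 to 48.2%). Tamoxifen mouse 2 had the lowest of both shares. Its general capillary-like cells had the lowest median depth, 2009 UMIs against 2914 to 3432 in the others, while its aerocyte-like cells, at 3920, were deeper than those of placebo mouse 1, at 3503. Thinned to 1000 UMIs, 33.8% of placebo and 24.5% of tamoxifen aerocyte-like cells held Apln, with 13 and 3 shallower cells left out. Likewise 29.03% of placebo and 19.4% of tamoxifen general capillary-like cells held Aplnr, with 50 and 41 left out. These thinned shares pool the cells of both mice of a group. They give no spread between mice and are no test of tamoxifen.

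A cluster of 51 cells with both the aerocyte and the general capillary markers was put in neither class. Of its cells 32 held both Apln and Aplnr, 62.7% (48.1 to 75.9%), against 1 of 145 aerocyte-like and 6 of 447 general capillary-like cells. Its median depth was 13701 UMIs, against 4395 in aerocyte-like and 2966 in general capillary-like cells, and its Vegfa, Tek and Kdr levels (3.63, 4.78 and 10.3 per 10000 over all mice) lay between those of the classes. Whether its barcodes hold 2 cells each was not tested. By mouse it numbered 18 and 19 cells under placebo and 7 and 7 under tamoxifen.

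**Figure D4:**
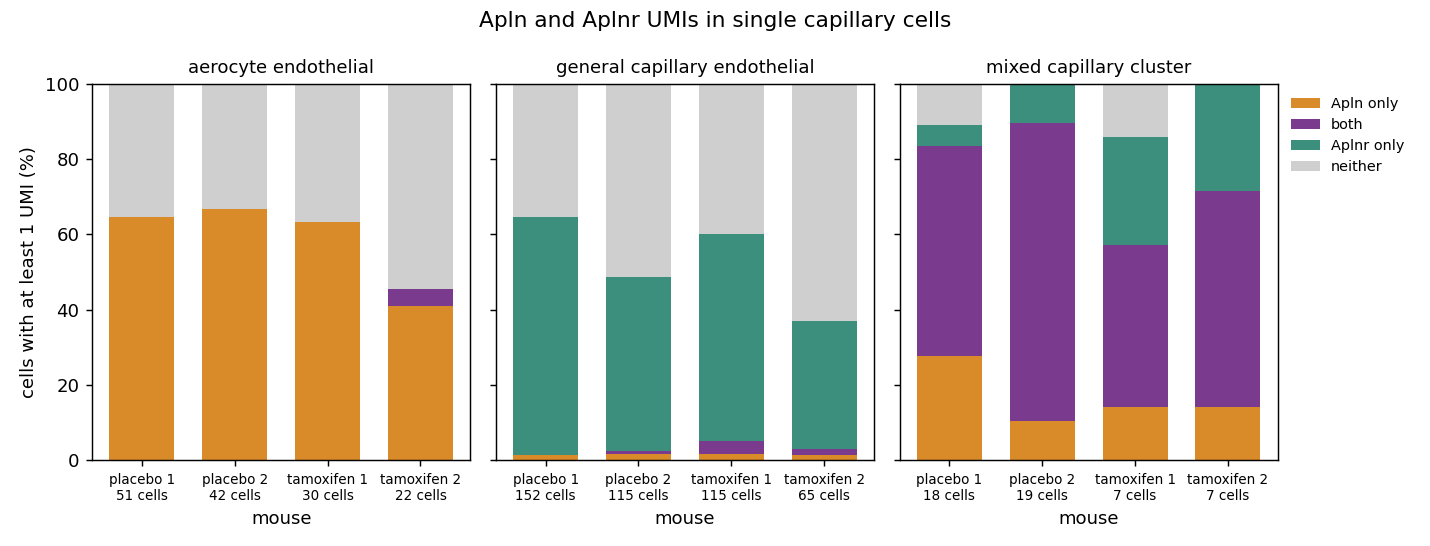
Share of cells (vertical axis, percent) with at least 1 UMI of Apln only, Aplnr only, both or neither in aerocyte-like cells, general capillary-like cells and the unnamed cluster with markers of both, 1 bar per mouse with its cell number below. Both genes are seen together in 1 of 145 aerocyte-like, 6 of 447 general capillary-like and 32 of 51 mixed cells.

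Genes most alike in pattern were sought for 3 members over the 20 classes in which every mouse had 20 cells or more, by Pearson correlation of log2(level + 0.1) of the 4-mouse mean among 14433 genes. For Apln these were Prrt4 (r = 0.986), Lmntd1 (0.977) and Kif26b (0.973), for Aplnr Fam167b (0.923), B3gnt3 (0.890) and Grrp1 (0.880), and for Vegfa Ptpru (0.818), Ndst1 (0.803) and Mcf2l (0.790). The large-vessel, lymphatic and alveolar type 1 classes had too few cells to count in this. The points share libraries, so r is a description.

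Tamoxifen was compared with placebo over mice, on UMI sums per mouse and class, with the quasi-likelihood test of edgeR and Benjamini-Hochberg adjustment over all genes of a class. The labels give 1 library per mouse, so the spread is that between 2 mice a group. Over 22 classes and the summed library, 68 tests of members met the count filter, none passed the adjusted threshold of 0.05 and 11 had an unadjusted p under it. The smallest adjusted p of edgeR was 0.325, for Vegfa in mesothelial-like cells. DESeq2 called 0 members in each of the 12 comparisons where it was run. In interstitial macrophage-like cells it gave an adjusted p to only 1389 genes, against 8901 in edgeR. A member without an adjusted p could not be called. A p that misses the threshold does not show that levels were alike.

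In general capillary-like cells 8 members were tested and 0 called, where 0% of the 6405 genes tested were called by edgeR and 220 had an unadjusted p under 0.05 (DESeq2 called 0). The log2 differences, tamoxifen over placebo ± SE, were 0.049 ± 0.22 for Vegfa, 0.095 ± 0.16 for Tek, 0.14 ± 0.16 for Flt1 and −0.12 ± 0.29 for Aplnr, each with adjusted p = 1 by edgeR. Kdr was at −0.28 ± 0.19 and Flt4 at −0.57 ± 0.31. The median over the 8 was −0.071, beside 0.0031 over all genes tested. Both tamoxifen mice were lower than both placebo mice for 1 member (Kdr) and higher for 1 (Flt1), where 16.1% and 15.3% of all genes did the same.

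Aerocyte-like cells had 5 members tested and 0 called, with 0% of 3314 genes called by edgeR and 132 with an unadjusted p under 0.05 (DESeq2 called 0). The log2 difference was −0.024 ± 0.25 for Apln, −0.10 ± 0.19 for Kdr, 0.092 ± 0.18 for Nrp1, −0.15 ± 0.20 for Flt1 and 0.058 ± 0.52 for Flt4. In 0 of the 5 did the groups of mice separate, where 19.1% of all genes were higher and 13.9% lower in both tamoxifen mice. Whether the effect of tamoxifen differed between aerocyte-like and general capillary-like cells was tested as an interaction with the mouse as a block: 0 of 4702 genes (0%) passed in edgeR, with 231 at an unadjusted p under 0.05. For Apln, which had 14 UMIs in the general capillary class, the difference between the classes was −1.40 ± 0.76 (unadjusted p = 0.0707, adjusted p = 0.984), and for Kdr it was 0.17 ± 0.22.

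Epithelium and large vessels were alike in having no call among the members. In alveolar type 1-like cells Vegfa differed by 0.26 ± 0.50 (adjusted p of edgeR 0.985), where 0% of 1319 genes were called, 64 had an unadjusted p under 0.05 and DESeq2 called 0. The class was tested although 1 mouse had only 15 of its cells. In alveolar type 2-like cells the difference was −0.14 ± 0.31 for Vegfa and 0.28 ± 0.25 for Nrp1, with 0.0223% of 4476 genes called. That 1 gene was Ngp, a neutrophil granule gene, at 0 UMIs in both tamoxifen mice. In large-vessel-like cells, tested although 1 mouse had only 16, 0 of 7 members and 0% of 3218 genes were called (108 had an unadjusted p under 0.05, DESeq2 called 0), and Vegfa was at −0.73 ± 0.38 (unadjusted p = 0.0865, adjusted p = 0.999). Without tamoxifen mouse 1 it was −0.20 and without tamoxifen mouse 2 −1.31.

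Angpt1 had opposite signs in its mesenchymal sources. In platelet-like cells it was at 0.75 ± 0.48 in log2 (edgeR adjusted p = 0.919), where 0% of 1176 genes were called. In the mural class the log2 difference was 0.67 ± 0.26 (edgeR unadjusted p = 0.0386, adjusted p = 1), where 0% of 7270 genes were called by edgeR, 196 had an unadjusted p under 0.05 and DESeq2 called 6, none of them a member. In adventitial fibroblast-like cells it was −0.87 ± 0.27 (unadjusted p = 0.00946, adjusted p = 0.749), with 0% of 7890 genes called, 387 at an unadjusted p under 0.05 and 0 called by DESeq2. Without tamoxifen mouse 2 it was −1.35 there. In alveolar fibroblast-like cells it was −0.26 ± 0.15 (adjusted p = 1), with 0.00956% of 10462 genes called, the 1 gene being Sftpc of alveolar type 2 cells. Both tamoxifen mice lay above both placebo mice in the mural class and below them in the 2 fibroblast classes, as 12.8% of all mural genes, 16.3% of adventitial and 12.6% of alveolar fibroblast genes did. The difference between the mural and adventitial effects, computed because their signs were seen to be opposite and so no independent support for it, was 1.60 ± 0.35 in log2 and did not pass in edgeR (adjusted p = 1). In the smooth muscle-like cluster alone, the largest of the mural class, Angpt1 was at 0.54 ± 0.32. RNA of other cells varied among mural cells, with S100a8 at 3.40 and 58.7 per 10000 under placebo and 0.665 and 14.95 under tamoxifen, and its part in the result was not tested.

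Vegfa, Apln, Kdr and Flt4 separated the groups in mesothelial-like cells, though none passed. Vegfa stood at 0.105 and 0.0967 per 10000 under placebo and 0.249 and 0.222 under tamoxifen, a log2 difference of 1.20 ± 0.33 (unadjusted p = 0.00446, edgeR adjusted p = 0.325). Apln stood at 0.00872 and 0.0552, then 0.108 and 0.0873, from 1, 4, 17 and 22 UMIs (1.79 ± 0.70, adjusted p = 0.645). Without placebo mouse 1 the Apln difference was 0.76 and without placebo mouse 2 it was 3.38. Kdr was at −0.45 ± 0.17 (adjusted p = 0.637). Of all 9734 genes, 0.0822% were called. Of the 4 members tested, 2 were higher and 2 lower in both tamoxifen mice, as 18.7% and 17.2% of all genes did in each direction.

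The mesothelial class held 2 clusters in different proportion. The second, with Rarres2 first and C3 and C2 among its leading genes, was 15.9% and 18.6% of the class under placebo and 51.0% and 41.3% under tamoxifen. It held less Kdr, 1.54 per 10000 over all mice against 6.08 in the first, and more Vegfa, 0.418 against 0.121. In the first cluster alone the difference was 0.39 ± 0.45 for Vegfa and −0.067 ± 0.20 for Kdr. The macrophage gene C1qa, at 0 in mesothelial-like cells of both placebo mice, was at 0.964 and 0.480 per 10000 in the tamoxifen mice and was among the 8 genes called. The part of macrophage RNA in the Vegfa and Apln values was not tested.

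Aplnr of interstitial macrophage-like cells was lower in both tamoxifen mice, with a log2 difference of −1.01 ± 0.25 (unadjusted p = 0.00368, edgeR adjusted p = 0.556), where 0.0112% of 8901 genes were called. All 3 members tested there were lower in both tamoxifen mice, as 22.6% of all genes were. A cluster led by Retnla, Fcna and Prg4, in which Aplnr was near 0, held 40 and 9 cells of the class under placebo and 74 and 69 under tamoxifen. In the largest cluster alone Aplnr stood at 0.658 and 0.509, then 0.409 and 0.445, a difference of −0.44 ± 0.24. With each mouse left out in turn, the Aplnr difference in the whole class was −1.31 to −0.77.

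**Figure D5:**
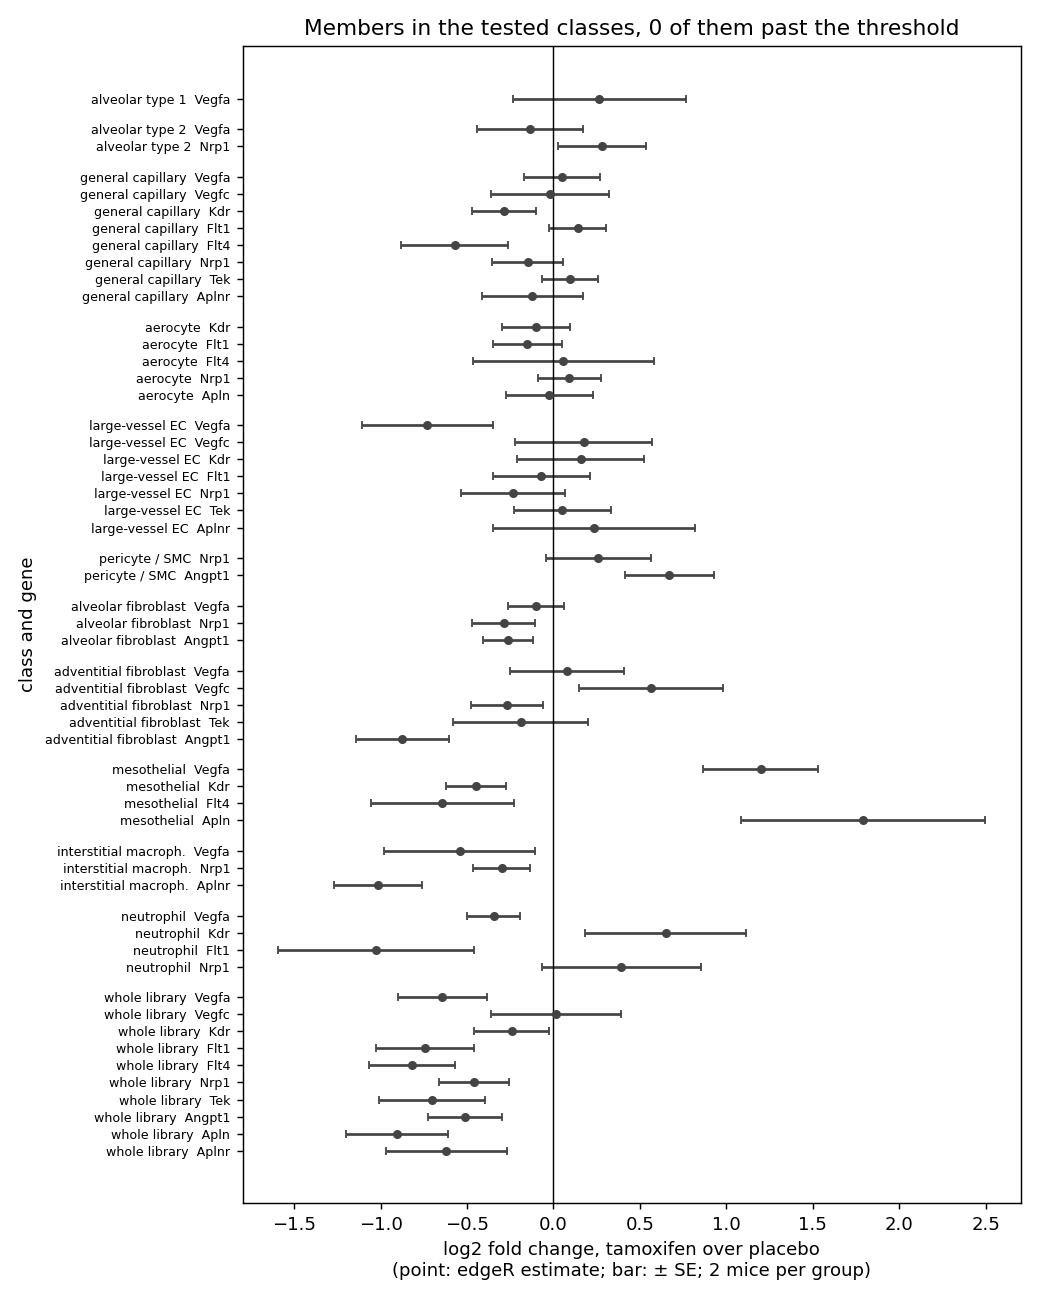
Log2 fold change of tamoxifen over placebo (horizontal axis; point, edgeR estimate; bar, ± 1 SE; 2 mice per group) of each tested member in the classes shown and in the summed library. None passed the adjusted threshold, and 9 of the 10 members lie below 0 in the summed library.

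In the remaining classes 0 members were called as well. Of all genes 0.038% were called in club or secretory, 0.0196% in non-classical monocyte-like, 0.0173% in type 2 dendritic-like and 0.601% in natural killer-like cells, the last with 0 members tested. Flt1 was lower in both tamoxifen mice in non-classical monocyte-like cells, at −0.89 ± 0.49, as 19.7% of all genes were, and Aplnr in type 2 dendritic-like cells, at −1.02 ± 0.54, as 14.1% were. Of 2 members tested in alveolar macrophage-like cells, Nrp1 was lower in both, as 21.2% of all genes were. Among the 4 members tested in erythroid-like cells 0 separated the groups, where 6.05% of all genes were higher and 3.46% lower in both tamoxifen mice. Kdr in adventitial fibroblast-like cells rested on 1 mouse, with 0, 0, 0 and 20 UMIs, and was too sparse for the test.

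Summed over all cells of a library, 9 of the 10 members were at negative values. The log2 difference was −0.91 ± 0.30 for Apln, −0.82 ± 0.25 for Flt4, −0.74 ± 0.28 for Flt1, −0.70 ± 0.31 for Tek, −0.64 ± 0.26 for Vegfa and 0.013 ± 0.38 for Vegfc, with adjusted p = 1 for each in edgeR. Of 16164 genes 0% were called, 423 had an unadjusted p under 0.05, and DESeq2 called 17, none a member. The median over the 10 was −0.63, beside −0.016 over all genes. In 5 of the 10 both tamoxifen mice were lower than both placebo mice, where 7.28% of all genes were. The endothelial-like classes held 3.22% and 2.43% of all UMIs under placebo and 2.49% and 1.13% under tamoxifen. In such sums fewer cells of a type and less RNA per cell cannot be told apart.

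Of 38 other pathway genes, 22 met the filter in general capillary-like, 12 in aerocyte-like, 10 in alveolar type 2-like and 25 in mural cells. In each, 0 passed in either direction. The highest levels named next were ranked among the endothelial, epithelial and mural classes only. Among receptors Ptprb, the phosphatase that restrains Tek, was highest in large-vessel-like cells (20.8 to 30.7 per 10000), Tie1, the partner of Tek, in general capillary-like cells (4.38 to 5.19), and Nrp2, a co-receptor of Flt4, in lymphatic-like cells (1.82 to 10.2). Sema3f, a semaphorin that binds neuropilins, was highest in aerocyte-like cells among these classes (7.07 to 9.70). Of the endothelial response genes, Plvap, which builds endothelial diaphragms, was highest in general capillary-like cells (42.4 to 53.9). Klf2 (22.7 to 35.7) and Sox18 (8.48 to 10.9), both endothelial transcription factors, were highest in aerocyte-like cells. Epas1, the hypoxia-inducible factor typical of endothelium, stood at 33.3 to 40.1 in general capillary-like cells, and Hif1a at 0.702 to 2.05 in alveolar type 1-like cells. In these classes the remaining ligands were sparse. Vegfb, Pgf and Angpt2 were highest in lymphatic-like cells, at 0.511 to 2.51, 0 to 2.72 and 0 to 2.72. The lymphatic class had 2 to 11 cells a mouse. Among the endothelial, epithelial and mural classes Foxo1 and Egln1 also led there (0.838 to 2.72 and 0.682 to 1.68), although B-like cells had a higher mean of Foxo1 (1.99 against 1.86), and Nos3, the endothelial nitric oxide synthase, in large-vessel-like cells (0.784 to 2.23).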

How the data were processed

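Raw UMI counts per gene and barcode were deposited by the authors, 1 matrix per mouse. The matrix header names Cell Ranger 5.0.0 while mm10 and Cell Ranger 8.0.1 appear in the submitters' processing notes, so which version made the counts is not settled; the gene annotation is not given in the sources used here. A barcode was kept from 250 genes up and to 15% mitochondrial UMIs, and those with a Scrublet score of 0.25 or more were removed (81 to 160 a library). Cells were clustered with scanpy 1.11.5 on 2000 variable genes without the members and pathway genes, and clusters were named from marker lists. The members and lists were chosen with earlier results of these data known. Sums of counts by class in each mouse went into edgeR 4.0.16 (TMM scaling, filterByExpr, quasi-likelihood F test, Benjamini-Hochberg adjustment, threshold 0.05) in classes with at least 20 cells a mouse; alveolar type 1 and large-vessel classes were added at a minimum of 15 after the cell numbers were seen. The script was tested on simulated counts of the general capillary class. It called 39 of 100 genes changed by 1 in log2 and 89 of 100 changed by 2, with 16 false calls. Alternatives were RLE scaling, DESeq2 1.42.0, no count filter, each mouse left out, a replicate block, doublets kept, clustering with the pathway genes, cells assigned singly and at least 500 genes. All 10 members are named; of each pathway list the 3 genes with the highest level in the endothelial, epithelial or mural classes are named, and for Vegfa, Apln and Aplnr the 3 genes most alike in pattern. An interaction fit of Vegfc that did not converge was left out. Promoters are from RefSeq (GRCm38.p6), and gene positions from GENCODE on GRCm38. Free RNA was not removed from the counts.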

Additional observations from a re-analysis of the deposited data

Results flagged for a closer look

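Vegfa was higher in both tamoxifen mice in the mesothelial class (1.20 ± 0.33 in log2), as 18.7% of all genes there were, and lower in both in the neutrophil class (−0.34 ± 0.15), as 29.6% were. The pair was 1 of 13 pairs of classes set against each other because a member moved in opposite directions in them after TMM scaling. A p for the difference is therefore no independent evidence and was not adjusted for the choice of pairs. The difference was 1.62 ± 0.40 (edgeR interaction test, adjusted p = 0.0107 over 12464 genes, of which 0.802% passed). With each mouse left out in turn the difference was 1.54 to 1.73 and did not pass. With the largest mesothelial cluster alone it was 0.81 ± 0.47 (adjusted p = 1). C1qa was at 0 in the mesothelial class of both placebo mice and at 0.964 and 0.480 UMIs per 10000 in the tamoxifen mice, and its part in the result was not tested.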

How the results depend on the processing

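Over 54 member values and 627 alternatives, 567 kept their direction and side of the threshold, 3 passed it and 57 changed sign, none of them a called value; the causes were not tested. Those that passed were Angpt1 in adventitial fibroblasts and Aplnr in interstitial macrophages, in fits that left 1 mouse in a group. In such fits calls over all genes of these classes moved as well, as given below. Kdr, too sparse for the main test in adventitial fibroblasts, was called there without the count filter and without tamoxifen replicate 1, on 20 UMIs of 1 mouse. No other alternative called a member. With cells assigned singly the log2 difference was 0.027 for Kdr and 0.029 for Apln in aerocytes, −0.079 for Vegfa, 0.33 for Vegfc and −0.012 for Flt1 in general capillary cells, −0.23 for Vegfc, −0.058 for Kdr and −0.34 for Tek in large vessels, and −0.012 for Nrp1 in neutrophils. With the pathway genes in the clustering it was 0.017 for Apln in aerocytes, and −0.27 for Vegfa, 0.020 for Vegfc, −0.088 for Flt1 and −0.12 for Tek in general capillary cells. With doublets kept it was 0.015 for Apln in aerocytes, −0.25 for Vegfa, −0.078 for Flt1 and −0.13 for Tek in general capillary cells, −0.054 for Vegfa in adventitial fibroblasts and −0.0047 for Tek in large vessels. With at least 500 genes Vegfc in general capillary cells was at 0.023. With the mixed capillary cluster, an alternative chosen after seeing the data, Kdr was at 0.030, Flt4 at −0.29 and Apln at 0.11 in aerocytes, and 39 cells held both Apln and Aplnr against 7.

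Leaving out each mouse in turn moved the log2 difference across 0 as follows. In the adventitial fibroblast class it was −0.28 to 0.87 for Vegfa and −0.69 to 0.32 for Tek. In the aerocyte endothelial class it was −0.34 to 0.18 for Kdr, −0.87 to 0.85 for Flt4, −0.082 to 0.26 for Nrp1 and −0.36 to 0.18 for Apln. In the alveolar fibroblast class it was −0.22 to 0.023 for Vegfa. In the general capillary endothelial class it was −0.30 to 0.37 for Vegfa, −0.30 to 0.13 for Vegfc, −0.34 to 0.044 for Nrp1, −0.020 to 0.21 for Tek and −0.51 to 0.42 for Aplnr. In the neutrophil class it was −0.059 to 0.76 for Nrp1. In the pericyte or smooth muscle class it was −0.22 to 0.60 for Nrp1. In the summed library it was −0.51 to 0.37 for Vegfc. In the alveolar type 1 class it was −0.19 to 0.59 for Vegfa. In the large-vessel endothelial class it was −0.63 to 0.59 for Vegfc, −0.21 to 0.55 for Kdr, −0.24 to 0.13 for Flt1, −0.11 to 0.19 for Tek and −1.21 to 0.72 for Aplnr. Without crossing 0 it moved by over 1.5 times for other members too, among them Flt4 in general capillary cells (−0.91 to −0.086) and Tek in the summed library (−1.20 to −0.36). For the Apln interaction it was −1.99 to −0.86, and for Vegfa between mesothelial and neutrophil cells 1.54 to 1.73, which did not pass.

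Calls over all genes moved more. Without the count filter there were 142 in adventitial fibroblasts, 5 in aerocytes, 105 in alveolar fibroblasts, 29 in alveolar type 2, 14 in general capillary, 260 in mesothelial, 45 in neutrophil, 157 in mural, 11 in alveolar type 1 and 26 in large-vessel cells, and 3 in the summed library. DESeq2 called 4 in alveolar fibroblasts, 22 in interstitial macrophages, 30 in mesothelial cells, 1 in neutrophils, 6 in mural cells and 17 in the summed library. RLE scaling gave 19 in mesothelial cells; single assignment gave 4 in adventitial fibroblasts and 0 in alveolar fibroblasts and mesothelial cells; keeping doublets gave 0 in alveolar fibroblasts; the largest cluster alone gave 0 in interstitial macrophages and mesothelial cells, and Vegfa between mesothelial and neutrophil cells was then 0.81. With the replicate block there were 11 in alveolar type 2, 6 in general capillary, 117 in interstitial macrophage, 240 in mesothelial, 98 in mural and 1 in alveolar type 1 cells and 4 in the summed library, and Vegfc in the summed library was at −0.044. Samples share only a number: same-numbered deviations correlated at 0.21 in the summed library and 0.05 in general capillary cells. Leaving out a mouse gave 0 to 98 calls in adventitial fibroblasts, 1 to 10 in aerocytes, 0 to 320 in alveolar fibroblasts, 3 to 16 in alveolar type 1, 9 to 32 in alveolar type 2, 0 to 45 in general capillary, 63 to 186 in interstitial macrophages, 8 to 48 in large vessels, 0 to 90 in mesothelial cells, 7 to 61 in neutrophils, 0 to 28 in mural cells, 5 to 103 in the summed library and 2 to 6 for the interaction, with 0 to 1 member called in adventitial fibroblasts and in interstitial macrophages. Not run for too few cells were doublets kept, single assignment and at least 500 genes in alveolar type 1, and clustering with the pathway genes in large vessels. Aerocyte-like cells numbered only 22 to 51 a mouse, which limits their precision.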
